A study of Sus scrofa with 12 samples.

Results

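In the pig left ventricle 4 genes, HERC5, IFIT5, PML and HADHB, had higher transcript levels in 2 groups of animals with diet- and banding-induced heart failure than in chow-fed control animals. They were chosen from measured values of these same animals: in each of them every saline-treated heart failure animal lay above every control animal, and the level stayed raised in the hearts treated with a vector. They are 4 of the 35670 genes in the deposited table, of which 13476 had enough counts to be tested. All 4 passed that filter. Because the comparisons of the heart failure groups with the controls made the choice, those differences are given as a description without a test.

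RNA was sequenced from 12 hearts of female Ossabaw pigs, a strain used to model obesity, 1 heart per library and 4 per group, all labelled wildtype and all in a single batch. Chow control animals ate normal chow and received no banding and no vector. HF saline animals ate a high-fat diet that began at 2 months of age, underwent aortic banding, which narrows the aorta and loads the left ventricle, and were given saline. HF KBD animals had the same diet and banding and an intravenous infusion of 8e12 vector genomes per kg of AAV9sc.KBD, a cardiomyocyte-directed vector for a peptide (KBD) with the kinase binding domain of AKAP6, a protein that anchors kinases. Hearts of both heart failure groups were taken 6 months after treatment. The labels do not give any animal's age at collection, so a difference in age between the controls and the others cannot be told apart from the group. Diet and banding were applied together and cannot be told apart, no group received a vector without the peptide, and the study modelled heart failure with preserved ejection fraction.

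HERC5 and IFIT5 are genes that cells switch on when interferon binds its receptors. HERC5 encodes the ligase that attaches the ubiquitin-like protein ISG15 to other proteins, and IFIT5 encodes an RNA-binding protein of the IFIT family. PML encodes the scaffold of PML nuclear bodies and is itself induced by interferon. HADHB belongs to another process: it encodes the beta subunit of the mitochondrial trifunctional protein, which carries the thiolase step that releases acetyl-CoA from long-chain fatty acids, the main fuel of the adult heart.

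On the Sscrofa11.1 assembly, HERC5 (ENSSSCG00000030548) lies on chromosome 8 at 130532256-130591158, 3782 bp from its paralogue HERC6. IFIT5 (ENSSSCG00000010454, LOC100151816 in RefSeq) lies on chromosome 14 at 101254818-101266105, next to IFIT1, IFIT3 and IFIT2, with a gap of 5331 bp to IFIT1. PML (ENSSSCG00000001912) lies on chromosome 7 at 59405044-59450155. HADHB (ENSSSCG00000008569) lies on chromosome 3 at 112712894-112753121, only 221 bp from HADHA, which encodes the alpha subunit of the same enzyme. The values are for whole genes, so they cannot be assigned to exons or to single transcripts. For each of the 4 genes and of HERC6, IFIT1, IFIT2, IFIT3 and HADHA, the expected count was whole in 12 of 12 animals, although whole counts do not show that no read was assigned to the wrong copy of a family.

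Library totals were 7721638 to 12637958 expected counts in chow control, 10164349 to 11162332 in HF saline and 9352931 to 11215390 in HF KBD. HF saline animal 1 stood apart from its group in library composition, with a TMM factor of 0.937 and 22.6% of its counts in its 10 most abundant genes. The vector transcript was at 0 in all 8 animals that were not infused and at 39.2 ± 19.4 CPM (counts per 1e6 of the unscaled total, SD, n = 4) in HF KBD. It separates infused from other animals and does not check the chow control against the HF saline labels. Of 8 cardiomyocyte markers 5 were in the table by symbol, and their summed level was high in every animal, from 27965 to 39563 CPM. The summed level of 6 macrophage markers was 195 to 227 CPM in chow control, 146 to 294 in HF saline and 154 to 211 in HF KBD. In whole tissue, fewer cells of a type and less RNA per cell cannot be told apart.

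HERC5 showed the largest difference of the 4. Its level in chow control animals 1 to 4 was 7.66, 7.53, 7.08 and 4.96 CPM (counts per 1e6 of the TMM-scaled total), from 50 to 89 counts per library. In HF saline it was 20.2, 16.9, 28.2 and 22.8 CPM, and in HF KBD 19.3, 17.3, 17.0 and 18.6 CPM. The lowest animal of either heart failure group was well above the highest control, by ratios of 2.20 in HF saline and 2.22 in HF KBD. The fitted level was 3.23-fold higher in HF saline (log2 fold change 1.69, SE 0.172) and 2.65-fold higher in HF KBD (1.41, SE 0.172).

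IFIT5 was the steadiest of the interferon-induced genes among the control animals, at 23.9, 25.3, 24.5 and 25.1 CPM. HF saline animals had 46.9, 42.8, 45.5 and 38.7 CPM, and HF KBD animals 30.2, 39.6, 38.9 and 34.1 CPM. No heart failure animal reached down to the controls, but HF KBD animal 1 came near them at 1.19 times the highest control. The fitted level was 1.76-fold higher in HF saline (log2 0.81, SE 0.0997) and 1.45-fold higher in HF KBD (log2 0.53, SE 0.0999).

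PML sat closest to the edge of the choice. The control animals had 31.7, 34.5, 24.7 and 28.5 CPM. The HF saline animals had 51.1, 38.3, 60.9 and 56.1 CPM, so animal 2 was above the highest control by a ratio of only 1.11. The HF KBD animals had 37.3, 34.2, 45.9 and 43.6 CPM. Of these, animal 2 fell just below the highest control (34.2 against 34.5 CPM), and 3 of 4 lay above it. The fitted level was 1.73-fold higher in HF saline (log2 0.79, SE 0.149) and 1.35-fold higher in HF KBD (log2 0.43, SE 0.149).

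HADHB was measured with the smallest counting error, from 8249 to 19205 counts per library. Its level was 1053, 1110, 1033 and 1070 CPM in chow control. In HF saline it was 1673, 1636, 1323 and 1391 CPM, and in HF KBD 1608, 1674, 1754 and 1439 CPM. Both heart failure groups lay clear of the controls, with HF saline split into a higher and a lower pair of animals. The fitted level was 1.41-fold higher in HF saline (log2 0.50, SE 0.0918) and 1.52-fold higher in HF KBD (log2 0.60, SE 0.0919), so HADHB alone of the 4 had its larger estimate in the vector-treated group.

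**Figure D1:**
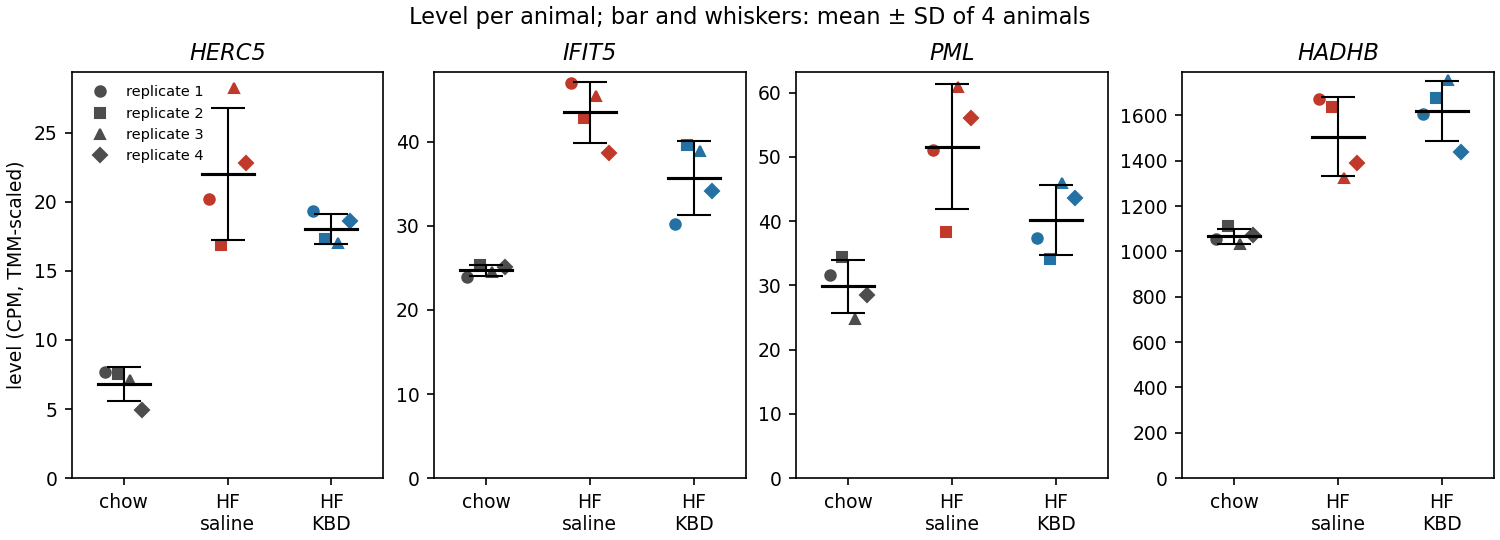
Level of each gene (CPM, TMM-scaled, linear axis from 0) in every animal by group, with marker shape for the replicate number and black bars for mean ± SD of 4 animals. HERC5 has a mean of 6.81 CPM in chow control, 22.03 in HF saline and 18.04 in HF KBD, and only PML has an HF KBD animal within the control range.

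By construction the heart failure saline and control animals did not overlap for 4 of 4 genes, where 3.48% of all tested genes had no overlap upward and 3.19% downward. In HF KBD against chow control 3 of 4 did not overlap, PML being the exception, against 3.78% of all tested genes upward and 3.67% downward. The count was 4 without chow control animal 2 or HF KBD animal 2, and with unscaled library totals. Higher without overlap in both heart failure groups were 1.22% of tested genes, or 164, so such genes were many more than the 4 described. The median log2 fold change over all tested genes was -0.0024 in HF saline and -0.0015 in HF KBD against the same control animals.

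Between the vector-treated and the saline-treated hearts, the 3 interferon-induced genes had lower estimates after the vector. The log2 difference of HF KBD from HF saline was -0.29 for HERC5 (95% interval -0.64 to 0.06), -0.28 for IFIT5 (-0.49 to -0.07) and -0.36 for PML (-0.67 to -0.04). For HADHB it was 0.10 (-0.09 to 0.30). The HERC5 difference was -0.15 without HF saline animal 3. That of HADHB was 0.048 without HF saline animal 3, 0.068 without animal 4 and 0.16 without animal 1, and 0.065 and 0.16 without HF KBD animals 3 and 4. In 0 of 4 genes did the 2 groups separate, against 1.31% of all tested genes separating downward and 1.45% upward. With edgeR's quasi-likelihood test and Benjamini-Hochberg adjustment, 0 of 4 passed (adjusted p = 0.99951 for each), as did 0 with DESeq2 (0% of all tested genes with either tool), while 2 of 4, IFIT5 and PML, had an unadjusted p under 0.05, as did 4.15% of all tested genes. The saline animals had entered the choice of the genes through their high values, so no call is read from this contrast. The intervals do not show that the groups were alike: for HERC5 the interval still held a fall of 0.64 on the log2 scale.

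**Figure D2:**
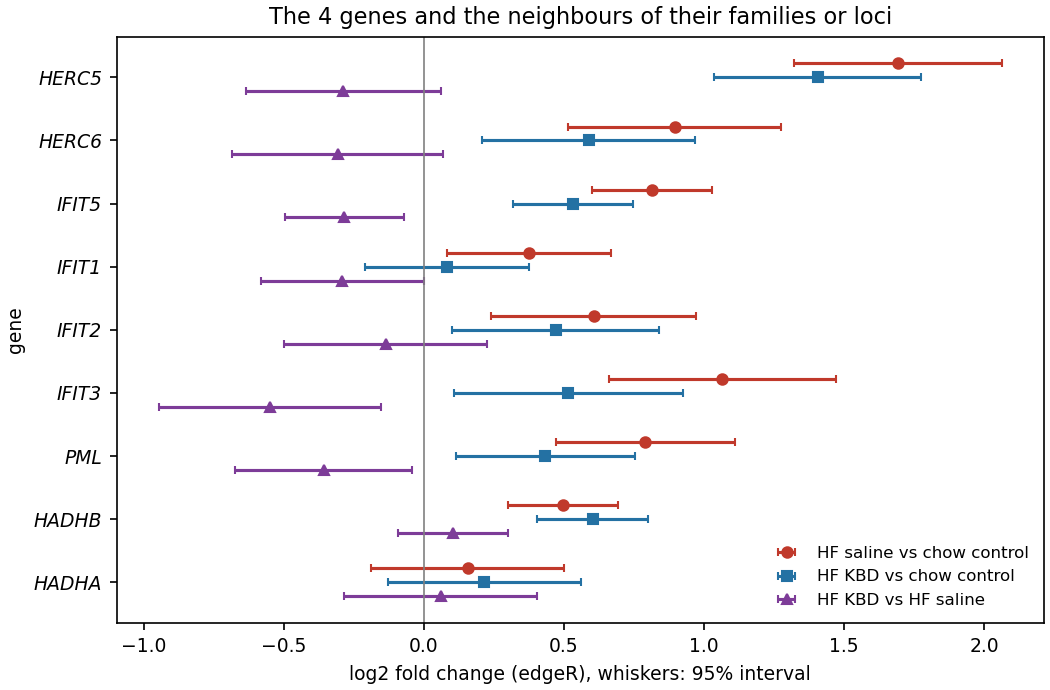
Log2 fold change (horizontal axis) of the 4 genes and of the genes next to them or paired with them, for the 3 group comparisons, with whiskers for the 95% interval. The HERC5 estimates against chow control, 1.69 and 1.41, lie to the right of those of its neighbour HERC6, 0.90 and 0.59, and the HADHB estimates, 0.50 and 0.60, lie to the right of those of HADHA, 0.16 and 0.22.

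The genes beside HERC5 and IFIT5 on the chromosome were also higher on average in the heart failure groups. HERC6, a HERC-family ligase gene next to HERC5, had 47.6 ± 12.8 CPM in chow control, 88.4 ± 13.96 in HF saline and 71.4 ± 5.33 in HF KBD (SD, n = 4 each), and did not pass edgeR's quasi-likelihood test in either comparison (Benjamini-Hochberg adjusted p = 0.0661 and 0.224). Of the other IFIT genes, IFIT3, which encodes a partner of IFIT1 in RNA binding, rose in HF saline from 13.7 ± 3.21 to 28.6 ± 6.88 CPM (SD, n = 4; log2 fold change 1.07, SE 0.189, edgeR adjusted p = 0.0427). Its HF KBD level was 19.5 ± 2.17 CPM. IFIT2 (log2 0.61, adjusted p = 0.178) and IFIT1 (log2 0.37, adjusted p = 0.283) did not pass edgeR's test in HF saline. The difference between the genes of a cluster was not itself tested.

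HADHA had smaller estimates than HADHB. It had 917 ± 231 CPM in chow control, 1022 ± 135 in HF saline and 1065 ± 112 in HF KBD (SD, n = 4 each). Its log2 fold change in HF saline was 0.16 with a 95% interval of -0.19 to 0.50, which holds the HADHB estimate of 0.50 at its upper end, and its adjusted p by edgeR was 0.764. The ratio of HADHB to HADHA counts was 1.22 ± 0.309 in chow control, 1.49 ± 0.201 in HF saline and 1.54 ± 0.233 in HF KBD (SD, n = 4 each). The control ratios ran from 0.959 to 1.60 and overlapped those of both heart failure groups. Within groups HADHB and HADHA were only weakly related over the 12 animals (Pearson r = 0.10, exact permutation p = 0.730, Spearman rho = 0.09, exact permutation p = 0.769, and r = 0.54 without the 2 animals farthest from the median).

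The spread between animals differed between the genes. HERC5 had a coefficient of variation of 18.5% in chow control, 21.7% in HF saline and 6.07% in HF KBD, where counting alone gives 12.2%, 6.62% and 7.35%. The HF KBD animals were thus no more spread than their counts allow, whereas the HF saline animals varied more than 3 times as much as counting. IFIT5 in chow control, at 2.63% against 6.32% from counting, was also within counting error, and it spread to 8.32% in HF saline and 12.3% in HF KBD. PML varied by 14.02%, 18.9% and 13.5% in the 3 groups, against 4.32% to 5.76% from counting. HADHB varied by 3.08% in chow control, 11.6% in HF saline and 8.25% in HF KBD, against less than 1% from counting in each. On the log2 scale the within-group SD was 0.25 for HERC5 and 0.23 for PML, above the medians of 0.22 and 0.16 for genes of like level (within 0.5 log2 units). It was 0.13 for IFIT5 and 0.12 for HADHB, below medians of 0.16 for each. The choice of genes without overlap favours small spread.

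Whether the 4 genes rose and fell together among animals of the same group was not part of the choice. It was tested on the deviation of log2 CPM from the group mean over 12 animals, in 6 pairs, with an exact two-sided permutation test within groups and Benjamini-Hochberg adjustment over the 6 pairs. In 0 of 6 pairs did the relation pass, by Pearson or by Spearman, and 0 pairs had an unadjusted p under 0.05 for either. HERC5 and PML deviated in the same direction (r = 0.58, exact p = 0.113, adjusted p = 0.339, rho = 0.52, exact p = 0.149), with r = 0.39 without the 2 animals farthest from the median of HERC5. HERC5 and HADHB deviated in opposite directions (r = -0.58, exact p = 0.0674, adjusted p = 0.339, rho = -0.61, exact p = 0.0864). They lay on opposite sides of their group means in 11 of 12 animals, and r was -0.73 without the 2 farthest animals but -0.37 without HF saline animal 3. The HERC5 and PML relation fell to r = 0.34 without HF saline animal 2.

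HF saline animal 3 had the highest HERC5 and PML levels of its group and the lowest HADHB level. IFIT5 went with neither interferon-induced partner. Its r was -0.18 with HERC5 (exact p = 0.557, rho = -0.27, exact p = 0.340, adjusted p = 0.669) and 0.06 with PML (exact p = 0.869, rho = 0.15, exact p = 0.673, adjusted p = 0.869). Without the 2 farthest animals these were -0.32 and 0.12. IFIT5 with HADHB gave r = 0.42 (exact p = 0.302, rho = 0.46, exact p = 0.187, adjusted p = 0.558, and 0.48 without the 2 farthest). PML with HADHB gave r = -0.38 (exact p = 0.372, rho = -0.31, exact p = 0.449, adjusted p = 0.558, and -0.31 without the 2 farthest). In the 8 heart failure animals alone, HERC5 with HADHB had r = -0.79 and HERC5 with PML r = 0.73, and neither passed the exact permutation test (adjusted p = 0.229 and 0.302).

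**Figure D3:**
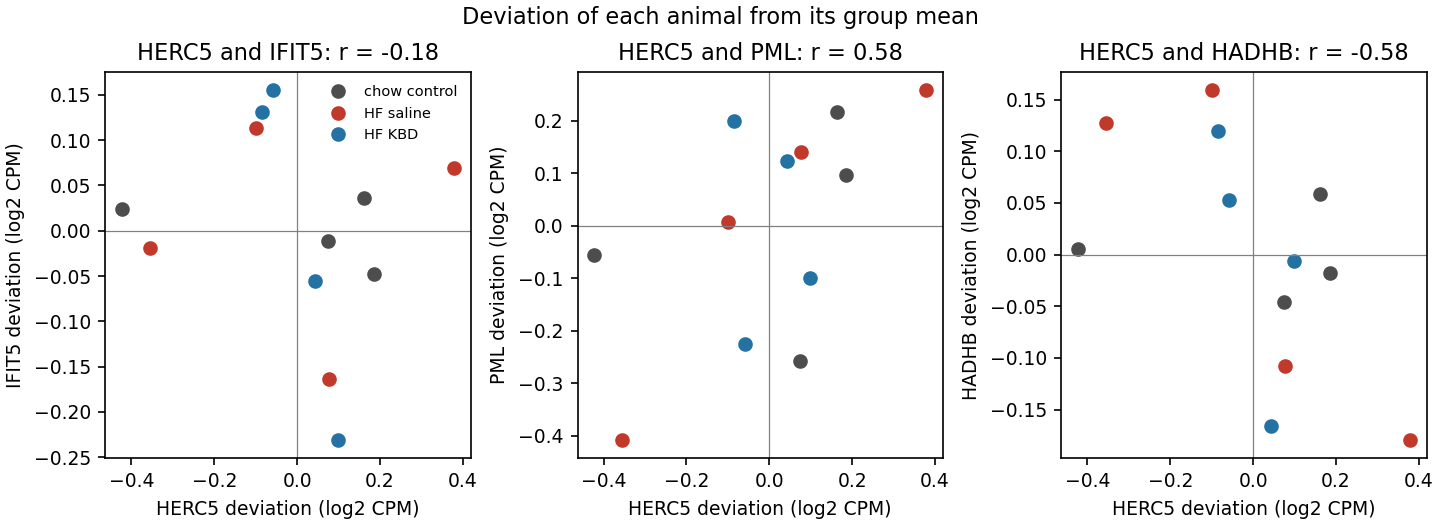
Deviation of each animal from its group mean (log2 CPM) for HERC5 on the horizontal axis and IFIT5, PML or HADHB on the vertical axis, coloured by group, 12 animals per panel. Points rise to the right for PML (r = 0.58), fall to the right for HADHB (r = -0.58) and show little slope for IFIT5 (r = -0.18), and no pair passed the adjusted exact test.

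No relation between the 4 genes and library total, TMM factor or the share of the 10 most abundant genes passed the exact permutation test, in 0 of 12 relations (smallest adjusted p = 0.732, 0 with an unadjusted Pearson p under 0.05). The nearest was HADHB with the share of the 10 most abundant genes (r = 0.61, exact p = 0.0610, rho = 0.71, exact p = 0.0253, adjusted rho p = 0.304).

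Among 10022 genes with a mean of at least 5 CPM, those whose deviations over the 12 animals were most like those of HERC5 were PARP12, an interferon-induced ADP-ribosyltransferase (r = 0.96, rho = 0.90), IFI44L, another interferon-induced gene (r = 0.94, rho = 0.96), and ENSSSCG00000017754, which has no symbol (r = 0.94). For IFIT5 they were TMEM131 (r = 0.89), ETV3 (r = 0.87) and PHRF1 (r = 0.87), for PML CPLX1 (r = 0.93), NMNAT2 (r = 0.91) and PPP6R1 (r = 0.89), and for HADHB PSMF1 (r = 0.90), CLPTM1L (r = 0.89) and ZBTB16 (r = 0.89). These are descriptions, because all genes were measured in the same 12 libraries, whose depth and composition differ. An r of at least 0.8 was reached by 65 genes with HERC5, 33 with IFIT5, 28 with PML and 33 with HADHB. In HF saline PARP12 (log2 fold change 1.37, edgeR adjusted p = 0.0418) and ENSSSCG00000017754 (1.52, adjusted p = 0.0190) also rose, while IFI44L (1.28, adjusted p = 0.144) did not pass. The 3 genes nearest to each of IFIT5, PML and HADHB did not pass edgeR's quasi-likelihood test in that comparison either.

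The surroundings of HERC5, IFIT5 and PML in the interferon response were read from a list of 50 other interferon-stimulated genes, of which 45 were tested. The list was written after the identity of the 4 genes was known, so it is not independent evidence of a direction. In HF saline 44 of 45 had an estimate above 0, PARP14 being the exception, with a median log2 fold change of 0.85. By edgeR's quasi-likelihood test with Benjamini-Hochberg adjustment 7 rose and 0 fell, or 15.6%, against 0.171% of all tested genes called higher and 0.089% lower, and 38 had an unadjusted p under 0.05. They did not overlap with the controls upward in 23 of 45, or 51.1%, against 3.48% of all tested genes. Over all tested genes 11.8% had an unadjusted p under 0.05 in this comparison, and DESeq2 called 1.94%, against 27 of the 45.

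The 7 were antiviral effectors, sensors and enzymes. MX1, a GTPase that blocks virus replication, rose from 18.04 to 59.6 CPM (log2 1.72, SE 0.249, edgeR adjusted p = 0.0224). UBA7, which encodes the enzyme that activates ISG15 ahead of HERC5, rose from 11.9 to 33.0 CPM (log2 1.48, SE 0.224, edgeR adjusted p = 0.0224). DHX58, a helicase of the RIG-I family, rose by a log2 fold change of 1.59 (edgeR adjusted p = 0.0498). EPSTI1 (1.74, edgeR adjusted p = 0.0499), the mitochondrial nucleotide kinase gene CMPK2 (1.36, adjusted p = 0.0450), the helicase-domain gene ZNFX1 (0.77, adjusted p = 0.0418) and IFIT3 completed the group. Others had estimates as large and did not pass: IFI6 was at 25.5 CPM in chow control and 106 in HF saline (log2 2.06, edgeR adjusted p = 0.103). USP18, which removes ISG15 from proteins, was at 6.37 and 21.98 CPM (log2 1.78, edgeR adjusted p = 0.114).

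The count of 7 rested on single animals: it fell to 0 without chow control animal 3 or HF saline animal 4 and to 1 without chow control animal 2 or 4 or HF saline animal 3, and to 2 without any 1 HF KBD animal. The median stayed between 0.71 and 0.99 with each animal left out. OASL, at 0 in all 4 controls (a floor of 3 counts per library averages 0.295 TMM-scaled CPM over them), was 0.18 to 6.59 CPM in HF saline. Setting it at that bound left the median at 0.85.

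In HF KBD 39 of 45 had an estimate above 0 against chow control, with a median of 0.49. By edgeR 0 passed, where 0.0297% of all tested genes were called higher and 0.0223% lower, while 19 had an unadjusted p under 0.05 and DESeq2 called 4 (CMPK2, UBA7, MX1 and ZNFX1), against 12.5% and 1.46% of all tested genes. In 13 of 45, or 28.9%, HF KBD did not overlap with the controls upward, against 3.78% of all tested genes. The HF KBD mean lay between those of the other groups for 38 of 45. Against HF saline 44 of 45 had an estimate below 0, with SAMHD1 the exception and a median of -0.48. There 0 passed by edgeR or DESeq2, and 17 had an unadjusted p under 0.05, against 4.15% of all tested genes. The median was -0.32 without HF saline animal 3. MX1 was at 42.6 CPM in HF KBD and UBA7 at 26.3, both nearer to HF saline than to the controls. These comparisons share animals with each other, so their values stand side by side only.

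**Figure D4:**
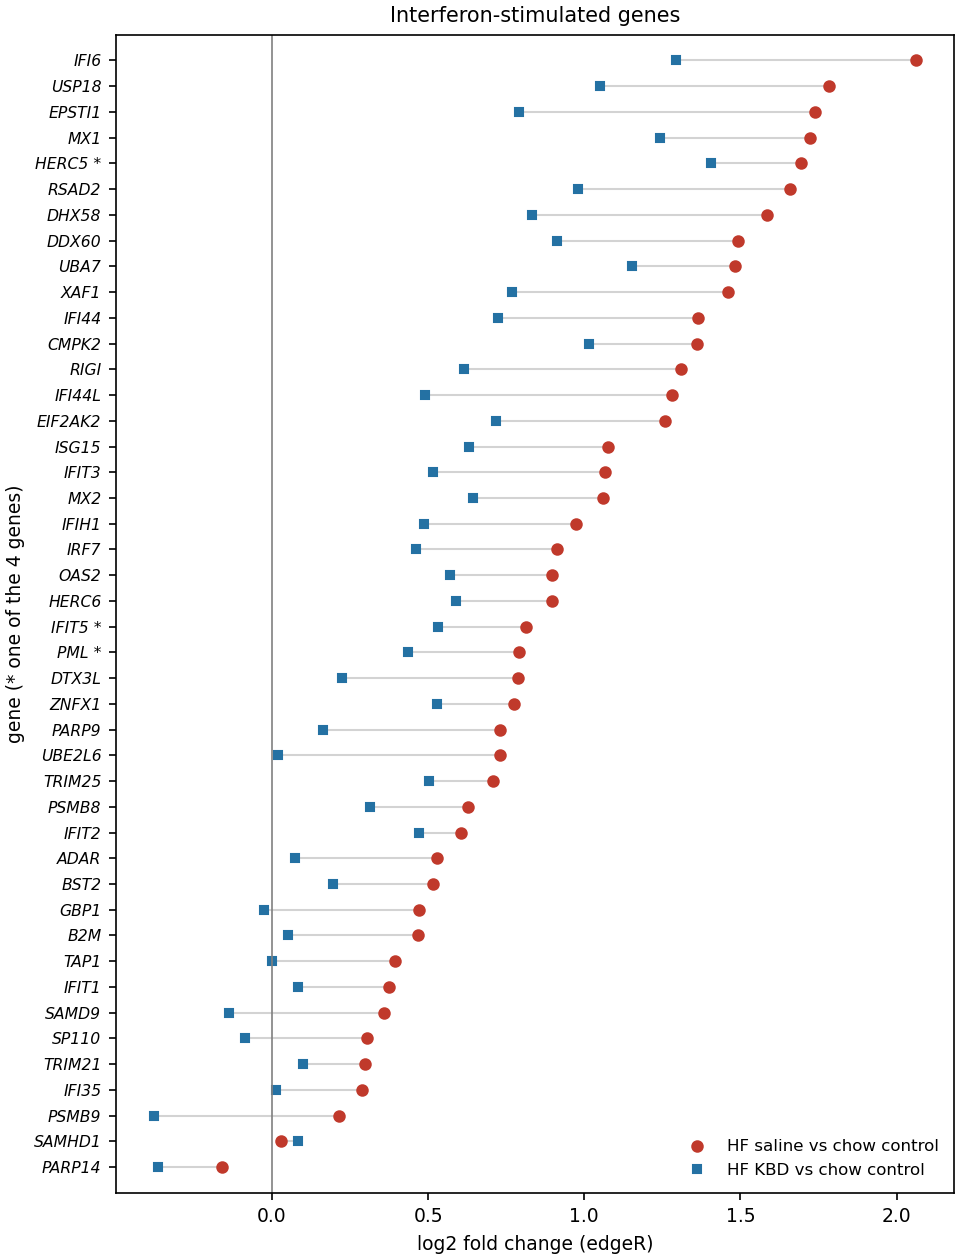
Log2 fold change against chow control of tested interferon-stimulated genes in HF saline (red circles) and HF KBD (blue squares), with HERC5, IFIT5 and PML starred and joined by a grey line per gene. OASL is left out because it is at 0 in every control, and 3 other genes of the list are not drawn. HERC5 is among the genes furthest right in both groups, at 1.69 and 1.41, and IFIT5 and PML lie near the middle of the list in HF saline, at 0.81 and 0.79.

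Animal by animal, the median of the 45 genes above the control mean was 0.73, 0.43, 1.24 and 1.05 log2 units in HF saline animals 1 to 4, 0.58, 0.42, 0.50 and 0.40 in HF KBD, and 0.29, 0.08, 0.02 and -0.32 in chow control. HF saline animals 3 and 4 were thus the highest, and they were also the 2 animals with the highest HERC5 and PML. The summed level of 4 lymphocyte markers was also highest in these 2 animals. It was 28.6 and 26.0 CPM in HF saline animals 3 and 4, 12.9 and 13.4 in animals 1 and 2, and 8.95 to 12.4 in HF KBD. In chow control animals 1 to 4 it was 9.44, 10.9, 12.4 and 13.5 CPM, the reverse of their order on the list of 45. Of the lymphocyte markers CD2, CD3E and PTPRC were tested and 0 passed by edgeR in HF saline, although 3 had an unadjusted p under 0.05 and DESeq2 called 1, and CD79A was below 1 CPM in every animal. Among all tested genes the unadjusted share was 11.8%, and DESeq2 called 1.94%. The HF KBD sum overlapped that of the controls, with a median of 12.1 against 11.6 CPM. The part of these markers in the result in HF saline was not tested.

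Within groups, over the 12 animals, HERC5 deviated with the list: its median r with the 45 genes was 0.69, with 32 genes at 0.5 or more, where the median over all genes was 0.00 and 8.44% reached 0.5. For PML the median r was 0.49 with 21 genes at 0.5 or more, against 6.84% of all genes. IFIT5, a gene of the same response, had a median r of -0.09 with 4 genes at 0.5 or more, against 7.24% of all genes. The 4 were IFI35 (r = 0.80), GBP1 (r = 0.58), and IFIT1 (r = 0.59) and IFIT2 (r = 0.58) of its own cluster. IFIT3, also of that cluster, had r = -0.045. HADHB had a median of -0.49 with 0 genes at 0.5 or more, against 7.26% of all genes. Without the 2 farthest animals the medians were 0.67 for HERC5, 0.40 for PML, 0.01 for IFIT5 and -0.33 for HADHB. The genes share the same 12 libraries and are not independent replicates, so these medians are a description.

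Of 7 genes of ISG15 conjugation beside HERC5, 1 rose in HF saline by edgeR, UBA7, with a list median of 0.90 in HF saline and 0.59 in HF KBD, and DESeq2 called 4. Over all tested genes edgeR called 0.171% higher and DESeq2 called 1.94% in either direction. ISG15 itself had 11.12, 23.2 and 17.0 CPM in the 3 groups (log2 1.08 in HF saline, edgeR adjusted p = 0.407). Of 20 interferon receptor and signalling genes 0 passed by edgeR in HF saline or HF KBD (6 and 2 with an unadjusted p under 0.05, 4 and 0 with DESeq2), with medians of -0.06 and -0.08. Among the ligands 9 interferon genes were in the table by symbol, a list written after their counts had been seen. Of these, 5, IFNB1 and IFNG among them, had 0 counts in all 12 animals, which allows up to 0.237 to 0.389 CPM of the unscaled total, depending on the library. IFN-ALPHA-8 had 1 to 18 counts and IFN-OMEGA-6 2 to 25, and none of the 9 exceeded 25 counts in any library. Of 12 other PML nuclear body genes 0 passed by edgeR in HF saline or HF KBD (2 and 2 unadjusted, 0 and 0 with DESeq2), with medians of 0.09 and 0.02.

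HADHB stood beside 20 other genes of mitochondrial fatty acid beta-oxidation, 18 of which had an estimate above 0 in HF saline with a median log2 fold change of 0.16. By edgeR 0 of 20 passed in HF saline or HF KBD, while 10 and 8 had an unadjusted p under 0.05, and DESeq2 called CPT2, CPT1A and ACADL in HF saline and 0 in HF KBD. Over all tested genes the unadjusted shares were 11.8% and 12.5%, and DESeq2 called 1.94% and 1.46%. In HF saline 8 of 20 did not overlap with the controls upward and 0 downward, against 3.48% and 3.19% of all tested genes. In HF KBD 5 did not overlap upward and 1 downward, against 3.78% and 3.67%. There 15 of 20 were above 0, with a median of 0.13, which was 0.074 without chow control animal 1. CPT1A, an outer-membrane carnitine transferase that admits long-chain fatty acids, had the highest estimates, 1.15 and 1.08 (edgeR adjusted p = 0.226 and 0.254). Its level was 22.6 ± 11.6, 50.7 ± 2.25 and 48.1 ± 8.76 CPM in the 3 groups (SD, n = 4 each). CPT1B, the other CPT1 gene of the list, was at 639 ± 40.7, 643 ± 40.7 and 617 ± 22.6 CPM, with estimates of 0.009 and -0.05. ACAA2, another mitochondrial thiolase of the list, was at 481 ± 45.1, 575 ± 44.3 and 544 ± 35.3 CPM in the 3 groups (SD, n = 4 each). ACAT1, also a mitochondrial thiolase, was at 399 ± 16.6, 423 ± 23.4 and 384 ± 27.9 CPM. The median r of HADHB with the list within groups was 0.11, and 0.34 without the 2 farthest animals. An r of 0.5 or more with HADHB was reached by 4 of the 20, against 7.26% of all genes.

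**Figure D5:**
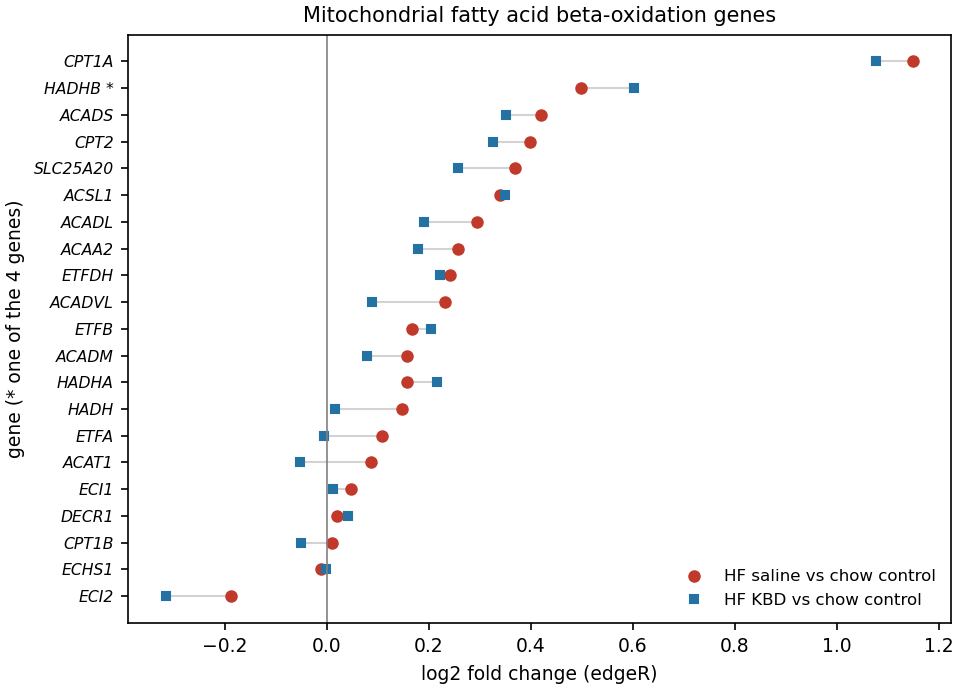
Log2 fold change against chow control of 20 genes of mitochondrial fatty acid beta-oxidation and of HADHB (starred), in HF saline (red circles) and HF KBD (blue squares). HADHB, at 0.50 and 0.60, is second to CPT1A, at 1.15 and 1.08, and most of the others lie between 0 and those values.

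The adipocyte marker sum separated both heart failure groups from the controls, as HERC5, IFIT5 and HADHB did, while PML did so in HF saline alone. The summed level of 4 adipocyte markers was 41.9 to 78.6 CPM in chow control, 87.1 to 131 in HF saline and 86.3 to 145 in HF KBD. Nearly all of it was FABP4, a fatty acid binding protein also made by endothelial cells (log2 0.98 and 0.89, edgeR adjusted p = 0.0844 and 0.141). The defining genes of adipocytes were at or near 0: LEP had 0 counts in 12 of 12 animals, ADIPOQ had 0 in 9 of 12, and PLIN1 was at most 0.291 CPM in HF saline and 0.366 in HF KBD. The highest ADIPOQ and PLIN1 levels, 2.88 and 1.39 CPM, were in chow control. The part of these markers in the 4 genes' results was not tested. Over all 10 marker lists 0 of 36 tested genes passed by edgeR in HF saline or HF KBD (16 and 6 unadjusted, 6 and 2 with DESeq2). Among all tested genes the unadjusted shares were 11.8% and 12.5%, and DESeq2 called 1.94% and 1.46%. The lists include fibroblast markers at 655 to 742 CPM in HF saline against 748 to 1123 in chow control and smooth muscle markers at 300 to 357 against 386 to 504.

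The other 6 lists gave 0 of 57 tested genes past edgeR's threshold in either comparison with chow control. Unadjusted, 15 and 10 passed, against 11.8% and 12.5% of all tested genes, and DESeq2 called 5 and 2, against 1.94% and 1.46%. In every list and comparison above for which edgeR called 0 genes, limma-voom also called 0. Their median log2 fold changes in HF saline and HF KBD were -0.17 and -0.22 for cardiac stress, -0.45 and -0.16 for matrix and fibrosis, 0.08 and 0.07 for calcium handling, 0.16 and 0.10 for lipid metabolism, -0.15 and -0.10 for glucose metabolism and 0.05 and 0.06 for AKAP6 and its kinases. HERC5, IFIT5, PML and HADHB were not accompanied by a called gene of the cardiac stress list, whose 7 tested members include genes that ventricles switch on under load. Of these 7, 1 had an estimate above 0 in HF saline and 2 in HF KBD. Estimates in HF saline and HF KBD were -0.89 and -1.23 for NPPA and -1.50 and -2.92 for NPPB. Both genes had an unadjusted edgeR p under 0.05 in HF KBD only.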

How the data were processed

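The authors deposited expected counts per gene for 12 left ventricles, made with STAR 2.7.10a, RSEM 1.3.1 and Sscrofa11.1 per the submitters' processing notes. The annotation release and the use of strand are not given in the sources used here, so overlapping and antisense genes are uncertain. Of the deposited values 4.54% were not whole and were rounded. RSEM divides reads between similar genes, which can shift counts within the IFIT and HERC families. Symbols, found for 15623 of 35670 identifiers, and positions came from RefSeq and symbol tables of the same assembly.

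Counts were fitted in R 4.3.3 with edgeR 4.0.16 (filterByExpr with a minimum count of 10, TMM factors, robust quasi-likelihood, all 12 animals), which left 13476 genes, and p-values were adjusted by Benjamini-Hochberg at 0.05. CPM are counts per 1e6 of the TMM-scaled total, and log2 CPM used a prior count of 2. Alternatives used DESeq2 1.42.0 and limma 3.58.1 voom, other normalisations and filters, and left out each animal. Nothing in the labels pairs animals across groups. The edgeR p-values set a group difference against the spread between these animals, and the permutation p-values come from rearranging animals within groups. In 66 pairs of libraries the chi-square per degree of freedom was 8.92 to 54.3, so no library was a copy. On simulated data for HF saline against chow control (13294, 13285 and 13288 genes), the fit called 23.2% of genes changed 1.5-fold, 65.1% at 2-fold and 88.8% at 4-fold.

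The 4 genes and all lists were chosen with earlier results of these data known. Named beside the 4 are the 3 genes closest to each by Pearson r among those with a mean of at least 5 CPM, and listed genes that passed the test, while other listed genes were chosen for their role after their values were seen. Intervals of fold changes come from the fit and include the spread between animals, whereas limits for 0 counts (3 counts) cover counting error only.
Some listed genes are counted in their list but not reported here by name.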

Additional observations from a re-analysis of the deposited data

Results flagged for a closer look

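In 54 checks of the highest or lowest animal of a group of 4, over the levels of the 4 genes, the library measures and the list medians, 3 values stood apart by the gap to the nearest animal. Chance flags about 1 in 20 groups, and 0 of the 3 were levels of HERC5, IFIT5, PML or HADHB. HF saline animal 1 had a TMM factor of 0.937, below the other 3 animals of its group (gap 0.851 of the group's range). The same animal held 22.6% of its counts in its 10 most abundant genes, the highest of its group (gap 0.863). HF KBD animal 2 had a median of 0.0352 log2 units above the control mean over the beta-oxidation genes, the lowest of its group (gap 0.935), while its HADHB level of 1674 CPM was within the range of the group.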

How the results depend on the processing

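The log2 fold changes of the 4 genes kept their direction in 252 of 252 fits over 3 comparisons. The count of genes without overlap changed in HF KBD against chow control, from 3 to 4, without chow control animal 2 or HF KBD animal 2 and with unscaled totals. Without 1 animal the HERC5 fold change in HF saline ran from 1.55 to 1.80, that of IFIT5 from 0.78 to 0.87, PML from 0.70 to 0.91 and HADHB from 0.44 to 0.56. Counts of called genes moved. For all genes in HF saline against chow control, where edgeR called 35, the counts were 6 with only the 2 groups compared, 262 with DESeq2 and 21 with limma-voom, and 3 to 72 without 1 animal. In HF KBD against chow control, where edgeR called 7, they were 35 with no filter on low counts and 197 with DESeq2, and 0 to 13 without 1 animal. The interferon-stimulated genes called in HF saline, 7, became 0 with only the 2 groups compared and 27 with DESeq2, and 0 to 10 without 1 animal. In HF KBD their count of 0 became 4 with DESeq2 and 0 to 1 without 1 animal.

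The IFIT5 and PML relation changed sign without 1 animal (-0.084 to 0.28), 3 of 114 runs over all pairs. The within-group SD of IFIT5 ran from 0.0973, without HF KBD animal 1, to 0.135. Relations with library measures changed sign in 27 of 168 runs, none past the threshold. With the 8 heart failure animals only, HERC5 with the TMM factor was 0.20 and PML with the total 0.29. Without 1 animal, HERC5 ran from -0.25 to 0.24 with the total, -0.23 to 0.22 with the TMM factor and -0.21 to 0.16 with the share of the 10 most abundant genes. PML ran from -0.23 to 0.23, -0.28 to 0.012 and -0.20 to 0.060, and IFIT5 with that share from -0.15 to 0.60. The cause of these changes was not tested.

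No paired analysis was possible because the replicate numbers only follow the order of the samples. HERC5, with 50 to 89 counts in the controls, is the gene whose values depth limits most. The alternatives for the interferon and beta-oxidation lists and for all genes were added after seeing the data.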
